A study of Mus musculus with 9 samples.

Results

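The creatine kinases and adenylate kinase 1 are the enzymes that move high-energy phosphate through muscle cells. The genes described here are Ckm, Ckb, Ckmt1, Ckmt2 and Ak1. They were chosen by name, as the probe sets annotated to exactly 1 of these 5 symbols, and not by their signal. That gave 12 probe sets of 36701 that are not controls, and 5 genes of the 15964 named on the arrays. Of the 12, 9 were on the U74Av2 array, 3 on U74Cv2 and 0 on U74Bv2.

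C2C12 is an established line of mouse skeletal myoblasts, which stop dividing and fuse into myotubes in low serum. The cells were kept at 37 °C in DMEM with 2% horse serum and penicillin/streptomycin for 5 days of differentiation. From their total RNA, 9 Affymetrix arrays were run, 3 of each of 3 designs. All 9 arrays are of this condition, with no undifferentiated or untreated cells, and the groups are the array designs. Separate cultures are not named in the labels, so the p-values below measure only the spread between arrays, which may be technical.

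Creatine kinases pass phosphate between ATP and creatine. Phosphocreatine serves as a rapid energy store and carries phosphate from mitochondria to the places where ATP is used. Ckm is the muscle subunit, part of which sits at the M band of the sarcomere, and Ckb is the brain subunit, which is also made by many other cells and by myoblasts. During muscle development the creatine kinase dimer is known to pass from the brain form through a mixed form to the muscle form. Ckmt1 is the ubiquitous mitochondrial form and Ckmt2 the sarcomeric mitochondrial form of heart and skeletal muscle, both of which lie between the mitochondrial membranes. Ak1 is the cytosolic adenylate kinase, abundant in muscle and brain, which turns a pair of ADP molecules into ATP and AMP.

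The signal is a probe set intensity on a linear scale. Probes differ in how well they bind, so multiples of the limit and percentiles of different probe sets describe signal, and an order among them is not an order of RNA amounts. Each signal is instead read against the background limit of its own array, which is the 95th percentile of controls whose target sequences the sample lacks (absent controls). There were 20 such controls on U74Av2, 20 on U74Bv2 and 17 on U74Cv2. The limit differed between the arrays of a design, and on U74Bv2 it was 498, 430 and 963 on replicates 1, 2 and 3. The SD of a multiple thus holds the spread of the limit as well as that of the signal. The same holds for the SE and p-values of limma below, since each limit is shared by all probe sets of its array. Detection required a signal over the limit on each of the 3 arrays of a design. A second call came from limma, which tested the mean log2 ratio of signal to limit against 0 across all probe sets of a design, with Benjamini-Hochberg adjustment. Levels in bulk RNA cannot tell fewer cells with a transcript from less of it per cell.

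The brain and muscle creatine kinases and Ak1 were above the background limit on all of their probe sets, and the sarcomeric mitochondrial form was under it on all 3 of its own. Ckb lay at 22.1 ± 3.5 times the limit on U74Av2 and at 3.4 ± 1.3 times on U74Cv2, and Ak1 at 25.7 ± 5.1 times on U74Av2 (SD, n = 3). Ckm lay at 1.8 and 3.8 times the limit on U74Av2 and at 3.7 and 6.9 times on U74Cv2. As these are different probe sets, the multiples give no order of Ckm and Ckb. Ckmt2 lay between 0.15 and 0.54 times the limit. The calls nearest the limit, on 160175_at of Ckm, 160565_at of Ckmt1 and 103618_at of Ckmt2, were lost when 1 array was left out. The 2 probe sets of Ckmt1 gave different calls.

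The background to these calls was as follows. On U74Av2, 58.2% of all probe sets were detected, 55.8% were called above the limit by limma and 28.7% below it. Of the 9 member probe sets on that design, 5 were detected (55.6%), 4 were called above and 4 below, so the share detected was close to that of the whole array. On U74Cv2, 31.6% of all probe sets were detected, 25.7% were called above and 41.2% below. All 3 member probe sets there were detected and called above. Of all named genes, 62% were detected by at least 1 probe set (61.4% by the probe set with the highest percentile alone), and of the 5 members 4 were, all but Ckmt2.

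**Figure D1:**
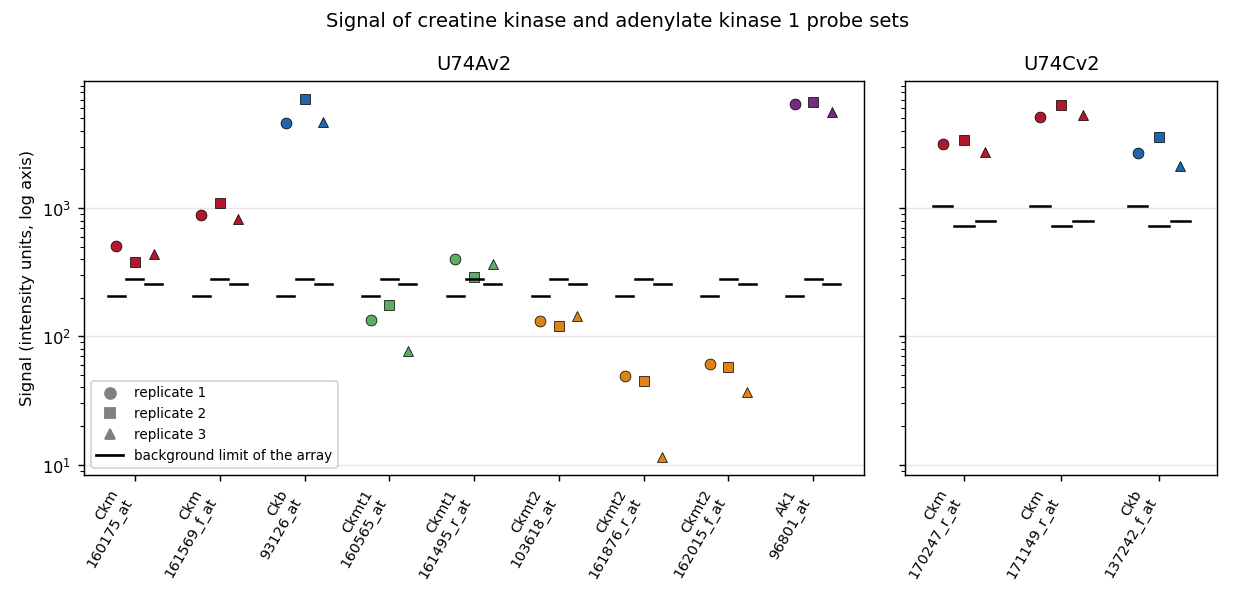
Signal of each member probe set on each array, in intensity units on a log axis, with U74Av2 on the left and U74Cv2 on the right. Symbols mark the replicates, colours the genes, and black lines the background limit of the same array. Ckb and Ak1 lie far above the lines on U74Av2, and all 3 Ckmt2 probe sets lie below them.

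Ckm, the muscle creatine kinase, was the member with the most probe sets. The probe set 160175_at, whose name carries no letter before "at", had signals of 504, 381 and 437 on replicates 1, 2 and 3 of U74Av2. The limits of these arrays were 206, 280 and 256, so the signal was above the limit on every array, at 2.4, 1.4 and 1.7 times. It was higher than all 20 absent controls on each array. The limma estimate was 0.83 ± 0.26 on the log2 scale (SE, n = 3), or 1.8 times the limit, with an adjusted p of 0.0162. That call was lost without replicate 1 (adjusted p = 0.0628) and without replicate 3 (adjusted p = 0.0858), and against the median of the array the estimate was -0.31. On the arrays themselves this probe set lay at the 46.1 ± 2.1 percentile of signal (SD, n = 3), slightly under the median probe set.

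The other 3 probe sets of Ckm were also above their limits. On U74Av2, 161569_f_at had signals of 889, 1092 and 823, which is 3.8 ± 0.6 times the limit (SD, n = 3; adjusted p = 0.000111, limma). On U74Cv2, 170247_r_at had signals of 3175, 3370 and 2718 against limits of 1034, 725 and 786. It lay at 3.7 ± 0.8 times the limit (adjusted p = 0.00286). Also on U74Cv2, 171149_r_at had signals of 5146, 6420 and 5354, at 6.9 ± 1.9 times the limit (adjusted p = 0.00093). None of these signals fell below the limit on any array.

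The letters in these names bear on how far the signal can be given to Ckm alone. By the maker's naming, "f" marks a probe set shared by a sequence family and "r" a probe set for which some rules of probe choice were dropped. Of the 12 member probe sets, 5 had neither letter, 1 for each gene and all on U74Av2. On U74Av2, 60.7% of the probe sets without a letter were detected, against 55.3% of the "f" and 38% of the "r" probe sets. On U74Cv2, 45.8% of the "f" and 34.4% of the "r" probe sets were detected. Genes with 4 probe sets, as Ckm has, were detected by at least 1 of them in 89% of cases, and genes with 2, as Ckb and Ckmt1 have, in 70.7%.

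Ckb, the brain-type creatine kinase, had signals of 4638, 7096 and 4722 on U74Av2 (93126_at). These were 22.5, 25.3 and 18.4 times the limit, and the probe set stood at the 90.0, 94.0 and 90.4 percentile of its array. The limma estimate was 4.45 ± 0.23 on the log2 scale (SE, n = 3), or 21.9 times the limit with a 95% interval from 15.1 to 31.9 times (adjusted p = 1.77e-06). The signal of replicate 2 was the highest, 1.53 times that of the lowest array. On U74Cv2, 137242_f_at had signals of 2691, 3564 and 2120, at 3.4 ± 1.3 times the limit (SD, n = 3; adjusted p = 0.00581, limma). Replicate 2 was again the highest there, 1.68 times the lowest.

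The spread of Ckb between replicates was wide for a detected probe set. Its SD of log2 signal was 0.35 on U74Av2, above that of 89.2% of detected probe sets, and the median of all detected probe sets there was 0.15. On U74Cv2 it was 0.38, above that of 76.2%, with a median of 0.24. The lowest signals of both Ckb probe sets were nevertheless above the limits of all arrays of their design.

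Ak1, the cytosolic adenylate kinase, had a single probe set (96801_at). Its signals were 6469, 6703 and 5585, which are 31.4, 23.9 and 21.8 times the limit. The arrays differed little, with an SD of log2 signal of 0.14, above that of 44.5% of detected probe sets. The limma estimate was 4.67 ± 0.24 on the log2 scale (SE, n = 3), or 25.4 times the limit with a 95% interval from 17.3 to 37.2 times (adjusted p = 1.59e-06). It lay at the 93.0 ± 0.7 percentile of signal (SD, n = 3). Of all genes with 1 probe set, 48% were detected.

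**Figure D2:**
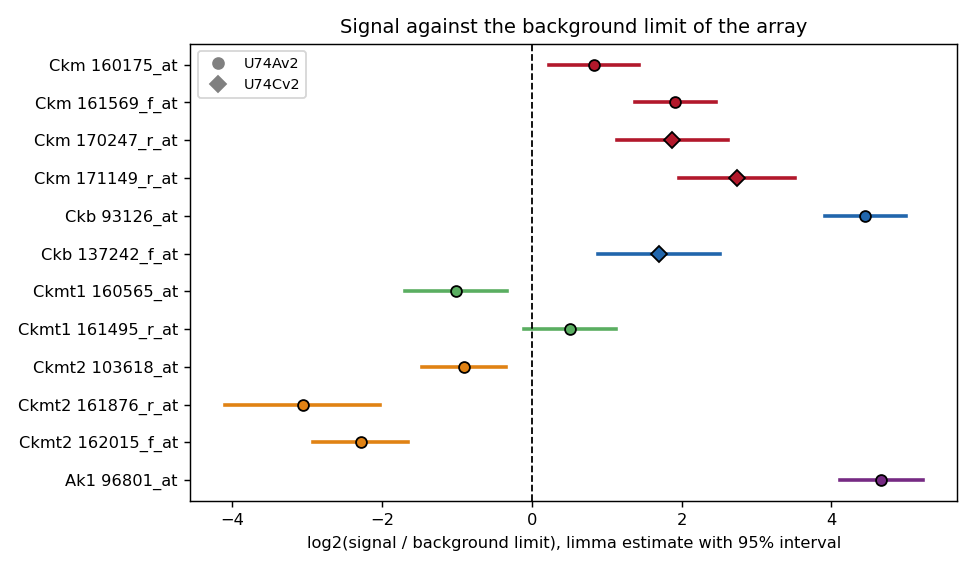
Mean log2 ratio of signal to background limit for each member probe set, as estimated by limma over 3 arrays, with its 95% interval. Circles are U74Av2, diamonds U74Cv2, colours the genes, and the dashed line the background limit. The interval of Ckmt1 161495_r_at spans the line, and those of the other 11 probe sets do not.

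Ckmt1, the ubiquitous mitochondrial creatine kinase, was split between its probe sets. The probe set without a letter, 160565_at, had signals of 135, 174 and 76.9, below the limit on all 3 arrays at 0.53 ± 0.20 times (SD, n = 3). It was called below the limit by limma (log2 estimate -1.01 ± 0.29, adjusted p = 0.0125). That call was lost without replicate 1 (adjusted p = 0.055) and without replicate 3 (adjusted p = 0.206).

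The other probe set of Ckmt1, 161495_r_at, had signals of 403, 289 and 366. It was above the limit on all 3 arrays, at 1.96, 1.03 and 1.43 times. The limma estimate of 0.51 ± 0.26 on the log2 scale (SE, n = 3) did not pass, with an adjusted p of 0.103 and a 95% interval from 0.93 to 2.17 times the limit. It passed without replicate 2 (adjusted p = 0.0333). Against the highest absent control in place of the 95th percentile it was not detected, since 1 of the 20 controls was brighter on replicate 2. Against the median of the array its estimate was -0.64.

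Ckmt2, the sarcomeric mitochondrial creatine kinase, was below the limit with all 3 probe sets on all 3 arrays. The probe set 103618_at had signals of 131, 120 and 143, at 0.54 ± 0.11 times the limit (SD, n = 3), and 16 of the 20 absent controls lay below it on each array. Its limma estimate was -0.90 ± 0.24 on the log2 scale (adjusted p = 0.00804), and the call was lost without replicate 3 (adjusted p = 0.0636). The probe set 162015_f_at had signals of 60.8, 57.3 and 36.9, at 0.21 ± 0.08 times (adjusted p = 0.000104). The probe set 161876_r_at had signals of 49.3, 45.3 and 11.5, at 0.15 ± 0.10 times (adjusted p = 0.000322, limma), and on replicate 3 it was below all 20 absent controls.

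Few genes had this pattern on every probe set. Of all 2000 genes with 3 probe sets, 108 (5.4%) were called below the limit by all 3, and 81.5% were detected by at least 1. Those genes may lie on any of the designs, whereas the Ckmt2 probe sets are all on U74Av2. The share of probe sets called below was 28.7% on U74Av2 and 41.2% on U74Cv2, so the 5.4% is only a rough background. A signal below the limit was not detectable with these probes, which does not show that the transcript was absent.

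**Figure D3:**
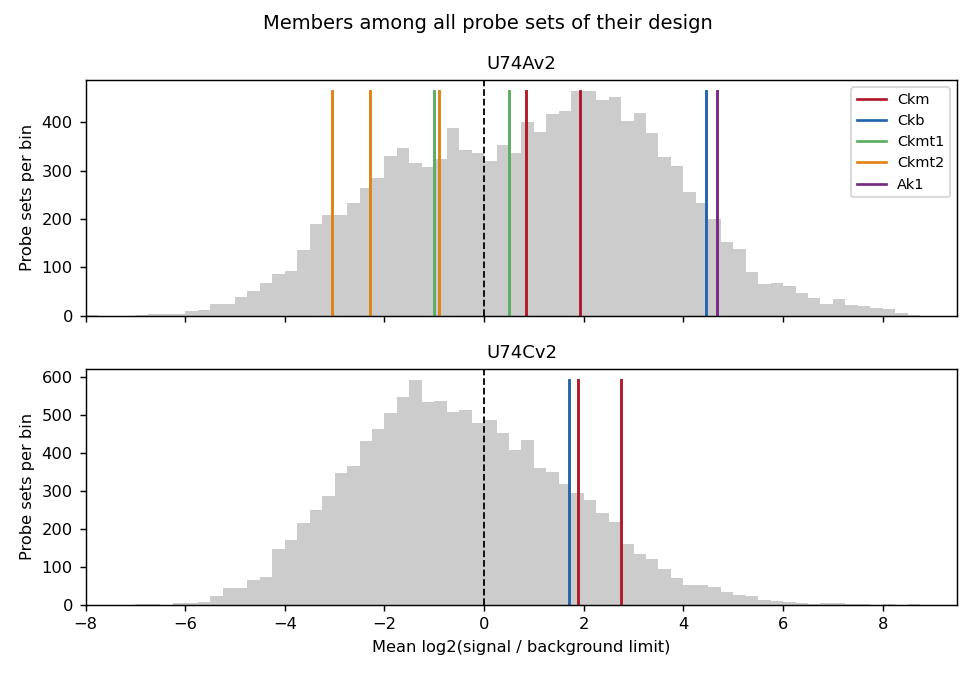
Number of probe sets in bins of the mean log2 ratio of signal to background limit, for all probe sets of U74Av2 (top) and U74Cv2 (bottom), with members as coloured lines and the limit as a dashed line. On U74Av2 the members run from Ckmt2 161876_r_at at -3.06 to Ak1 at 4.67, and on U74Cv2 all 3 lie to the right of the limit.

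The upstream sequences of Ckm, Ckb and Ckmt2 are shown because these genes carry the contrast between the muscle, brain and sarcomeric mitochondrial forms, and because muscle regulators bind the E-box CANNTG. Of these regulators, Myog and Myod1 lay at 66.7 ± 11.7 and 31.7 ± 4.1 times the limit (SD, n = 3), and both were named after their values were seen. Each is the 250 bases before the start of the RefSeq gene in GRCm38.p6, written 5′ to 3′ on the strand of the gene. Capitals mark matches, on either strand, to the E-box CANNTG, to TATAAA and to the MEF2 motif.
Ckm, chr7:19410844-19411093, plus strand: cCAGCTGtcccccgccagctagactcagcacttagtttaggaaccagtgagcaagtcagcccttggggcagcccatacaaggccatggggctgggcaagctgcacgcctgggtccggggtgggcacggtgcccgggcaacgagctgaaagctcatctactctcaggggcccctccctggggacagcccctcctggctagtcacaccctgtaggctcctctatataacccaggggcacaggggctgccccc
Ckb, chr12:111672339-111672588, minus strand: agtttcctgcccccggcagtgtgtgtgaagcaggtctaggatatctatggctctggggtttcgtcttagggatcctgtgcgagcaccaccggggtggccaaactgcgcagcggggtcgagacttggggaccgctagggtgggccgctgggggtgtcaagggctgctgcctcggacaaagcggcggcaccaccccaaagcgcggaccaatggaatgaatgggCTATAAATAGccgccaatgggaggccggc
Ckmt2, chr13:91876886-91877135, minus strand: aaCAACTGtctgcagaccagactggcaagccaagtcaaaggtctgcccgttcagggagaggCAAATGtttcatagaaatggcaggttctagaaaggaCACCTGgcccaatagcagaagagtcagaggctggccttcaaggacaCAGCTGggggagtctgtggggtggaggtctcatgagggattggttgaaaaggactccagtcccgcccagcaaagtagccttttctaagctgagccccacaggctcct

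The Ckm window held 1 E-box, at its far end, 249 bases before the start. The well-known muscle enhancer of Ckm, with its own E-boxes and MEF2 site, lies further upstream than this window. The Ckmt2 window held 4 E-boxes, the nearest 107 bases before the start. The Ckb window held 0 E-boxes. It held the letters CTATAAATAG, which match both TATAAA and the MEF2 motif, the latter beginning 29 bases before the start. Of all 32851 RefSeq windows of this length, 66.2% held an E-box, 12.4% TATAAA and 2.92% the MEF2 motif. The MEF2 motif contains letters that stand for several bases, and a match describes the letters only.

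Among the replicates, the detected members leaned to replicate 2. Of the 8 detected member probe sets, 6 had their highest signal on replicate 2, 2 on replicate 1 and 0 on replicate 3. Over all detected probe sets of U74Av2, replicate 2 was the highest in 33.8% and replicate 3 in 33.6%, and on U74Cv2 the shares were 33.4% and 33.2%. Members share their arrays and some share a gene, so the 8 are not independent. The exceptions were 160175_at of Ckm and 161495_r_at of Ckmt1, both lowest on replicate 2. The 18S ribosomal RNA control (3′ probe set) also differed between the U74Av2 arrays, at 37592, 62249 and 95512, and its part in the members' spread was not tested. The ratio of 3′ to 5′ signal stayed between 1.10 and 1.14 for beta-actin and between 0.84 and 0.86 for Gapdh on these arrays. On U74Cv2, and likewise on U74Bv2, replicate 1 was run on another fluidics station than replicates 2 and 3. Per the file headers each design was scanned on its own day, so the effects of day and of design cannot be told apart.

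Genes around creatine and phosphate transfer were mostly detected. Of all named genes 62% were detected, from 48% of those with 1 probe set to 89% of those with 4. Calls above the limit in these lists are for each gene's brightest detected probe set. No such share of calls over all genes was made. All 3 genes of creatine synthesis and uptake were detected and called above the limit. Gatm, which makes guanidinoacetate, lay at 20.1 ± 2.8 times the limit, Gamt, which methylates it to creatine, at 16 ± 1.6 times, and the creatine transporter Slc6a8 at 9.6 ± 1.5 times (SD, n = 3). Of Slc6a8, 2 of 3 probe sets were detected.

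Of the other adenylate kinases, 3 of 5 measured genes (60%) were detected, close to the share of all genes. Ak3, of the mitochondrial matrix, lay at 6.6 ± 1.6 times the limit, Ak4, also mitochondrial, at 3.0 ± 1.0 times, and Ak7, known from cilia, at 3.0 ± 1.7 times through a single one of its 3 probe sets (SD, n = 3). Ak5, a brain form, lay at 0.44 ± 0.34 times and Ak8 at 0.18 ± 0.07 times, and both were called below the limit.

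Of the sensors and users of AMP, the product of adenylate kinase, 10 of 11 genes were detected and 9 called above the limit. These genes lie on all 3 designs, and the like share is the 62% of all named genes that were detected. Of single probe sets on U74Bv2, 43.8% were detected. Prkag2 and Prkag3, subunits of the AMP-activated kinase that bind AMP, lay at 18.7 ± 4.0 and 7.8 ± 3.6 times the limit of U74Bv2. The Prkag2 value is that of an "r" probe set, and 2 of the 4 Prkag2 probe sets were detected. The AMP deaminase Ampd2 lay at 13.9 ± 3.9 times (SD, n = 3), with 2 of its 4 probe sets detected. The muscle AMP deaminase Ampd1 was not detected, at 1.1 ± 0.6 times (adjusted p = 0.976, limma). All 4 measured nucleoside diphosphate kinases were detected, with Nme2 at 81.2 ± 13.0 times, Nme4 at 4.1 ± 0.6 times and Nme6 at 3.9 ± 1.0 times.

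Of the genes listed around mitochondrial ATP export, 6 of 7 were detected, and 5 were called above the limit. A place on this list does not mean that a gene's protein carries ATP. The muscle ATP/ADP carrier Slc25a4 lay at 85.0 ± 31.0 times the limit of U74Bv2, the outer membrane channel Vdac3 at 17.2 ± 2.5 times, and the outer membrane protein Tspo at 143 ± 20 times (SD, n = 3). The signals of Slc25a4 were close together, at 48562, 46379 and 47922, while the limits of these arrays were 498, 430 and 963. Vdac1 was not detected, at 0.79 ± 0.39 times on an "r" probe set of U74Cv2. At the sarcomere, all 4 measured anchor genes were detected. The M-band proteins Myom2 and Myom1 lay at 123 ± 25 and 5.5 ± 0.5 times the limit, and Fhl2, which is known to tether Ckm and Ak1 to titin, at 35.1 ± 7.6 times. The values of Slc25a4 and Myom2 are those of "f" probe sets, the latter on U74Cv2, which by the maker's naming are shared by a sequence family.

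Other energy enzymes that come in muscle and in ubiquitous or brain forms were detected in both. Muscle forms were detected for 8 of 10 genes, with Eno3, the muscle enolase, at 101 ± 9 times the limit, Slc25a4 as above with its "f" probe set, and Pfkm, muscle phosphofructokinase, at 42.7 ± 9.8 times (SD, n = 3). Cox7a1, a muscle subunit of cytochrome oxidase, at 0.54 ± 0.40 times, and Phkg1, the muscle catalytic subunit of phosphorylase kinase, at 0.36 ± 0.22 times, were not detected and were called below the limit. Ubiquitous or brain forms were detected for 10 of 11 genes, with Cox6a1 at 81.5 ± 10.1 times on an "f" probe set, Cox7a2 at 63.3 ± 5.2 times and Pgam1, phosphoglycerate mutase, at 61.7 ± 6.5 times. Cox8a was not detected, at 0.61 ± 0.12 times, and was called below the limit.

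**Figure D4:**
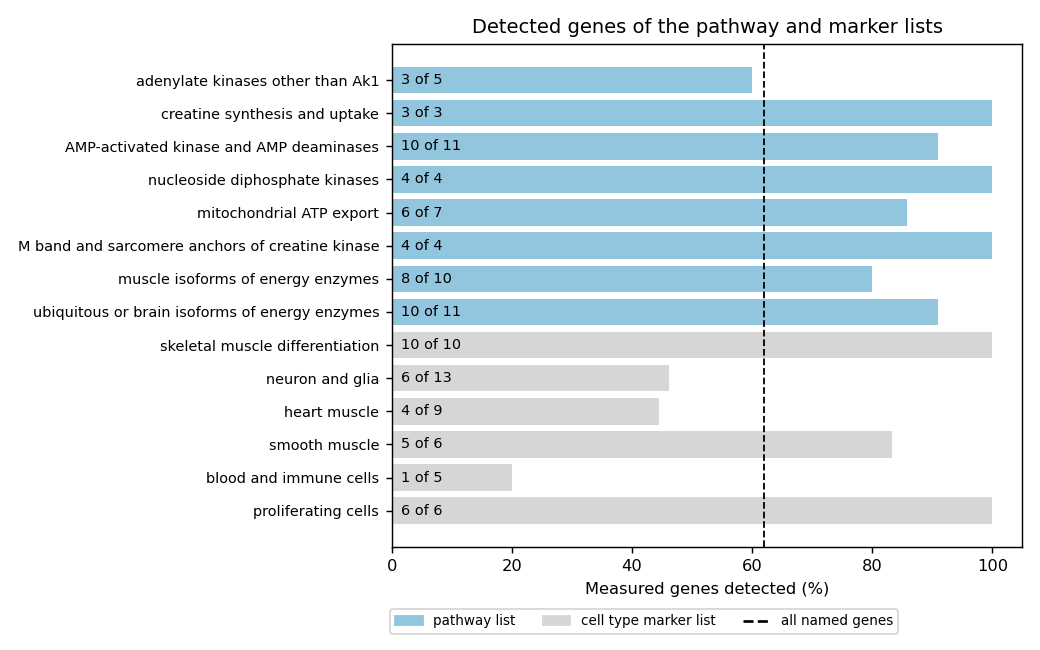
Percentage of the measured genes of each list that were detected by at least 1 probe set, with the counts on the bars, pathway lists in blue and cell type markers in grey. The dashed line is the 62% of all named genes that were detected. All 10 skeletal muscle markers and 4 of 9 heart markers were detected.

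Markers of the labelled cell type were present and those of the tissues that share these enzymes were partly so. All 10 measured markers of skeletal muscle differentiation were detected and called above the limit, among them Acta1 at 298 ± 31 times, Tnnt1 at 118 ± 22 times and Mymk at 104 ± 46 times (SD, n = 3). Beside Ckb and Ckmt1, which are abundant in brain, 6 of 13 neuron and glia markers were detected, with a summed signal on U74Av2 of 3119 to 3623 over 14 probe sets. Eno2 lay at 4.8 ± 1.1 times, Gfap at 3.1 ± 1.1 times and Rbfox3 at 2.4 ± 0.7 times (SD, n = 3). Gfap was detected by 1 of its 3 probe sets and Rbfox3 by 1 of 2. Syp, Snap25, Syt1, Nefm, Mbp, Mog and S100b were not detected. The undetected ranged from Snap25 at 0.09 times the limit to Mbp at 1.5 ± 0.5 times, which was not over the limit on all 3 arrays. Their part in the signal of Ckb was not tested.

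Beside Ckmt2, which is abundant in heart, 4 of 9 heart markers were detected, with a summed signal on U74Av2 of 1893 to 3490 over 8 probe sets. Nppa lay at 4.8 ± 2.25 times the limit, Gata4 at 4.0 ± 2.3 times and Tbx5 at 2.7 ± 0.9 times (SD, n = 3). Gata4 and Tbx5 were each detected by 1 of 2 probe sets. Limma called 3 of the 9 heart markers above the limit. Myh6, Myl7, Tnni3, Nkx2-5 and Myl3 were not detected. Of these, Tnni3 lay at 1.4 ± 0.5 times but was not over the limit on all 3 arrays. Of smooth muscle markers 5 of 6 were detected, with Acta2 at 226 ± 33 times, Tagln at 139 ± 21 times and Smtn at 4.6 ± 0.7 times, and Myocd was not. Of blood and immune markers 1 of 5 was detected, Cd68 at 1.4 ± 0.2 times by 1 of its 2 probe sets. Limma did not call Cd68 above the limit (adjusted p = 0.0702). Ptprc, Cd3e, Hba-a1 and Itgam were not detected. Hba-a1 lay at 1.7 ± 0.9 times but was not over the limit on all 3 arrays. All 6 markers of proliferating cells were detected, with Mcm5 at 39.8 ± 6.8 times, Pcna at 14.4 ± 3.9 times and Ccna2 at 9.9 ± 1.7 times. The Mcm5 value is that of an "r" probe set on U74Cv2, and 2 of the 3 Mcm5 probe sets were detected. Myoblasts are also known to make Ckb, and the part of such cells in its signal was not tested.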

How the data were processed

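The authors deposited 1 linear intensity per probe set, made with MAS5 per the submitters' processing notes, with no settings stated. Each array's 2% trimmed mean lay between 1500.3 and 1500.95, so arrays had been scaled one by one. Per the file headers, the deposited instrument settings (values of another kind) name the chip type, which was as labelled for all 9, a fluidics station and the scan day. The number of arrays, 3 per design, limits the precision.

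Gene symbols came from the platform annotation, and a gene was named from probe sets of a single symbol (10833 on U74Av2, 10581 on U74Bv2, 7717 on U74Cv2). Several symbols were given for 396, 178 and 150, and none for 1193, 1652 and 4001. All 5 members' gene identifiers matched RefSeq (GRCm38.p6). Absent controls were the Dap, Lys, Phe, Thr, Trpn and reverse-strand controls, leaving out families whose median exceeded the design's median signal.

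For each design, limma 3.58.1 (R 4.3.3) fitted an intercept to log2(signal / limit) over all probe sets that are not controls, two-sided, with a threshold of 0.05 after Benjamini-Hochberg adjustment. The fit was tested on simulated data, with noise drawn separately for each probe set. The simulation left out the error that the probe sets of an array share through its limit. It thus cannot judge the calls in that respect. Detection calls were not used. Alternatives were 2 other limits, quantile normalization, a floor of 16, trended robust moderation, a filter on dim probe sets, each replicate left out, and 2 other detection rules. The members, the 14 lists and the tests were chosen with earlier results of these data known. Named were all members, and of each list the undetected genes and up to 3 detected ones with the highest multiple of the limit. Myog and Myod1, ranked 4 and 8 in their list, were named outside this rule, beside the E-boxes. A gene's multiple is that of its brightest detected probe set by that measure. No gene was named for likeness to a member, since 3 replicates of 1 condition give no pattern. Tables were made in Python 3.11.15 with pandas 2.3.3 and numpy 2.4.6, and figures with matplotlib 3.10.9. Promoter windows are RefSeq's (GRCm38.p6).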

Additional observations from a re-analysis of the deposited data

How the results depend on the processing

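No paired analysis was possible because the array designs share replicate numbers but no member probe set, and each test lies within 1 design. Of the 12 member probe sets, 7 were called above and 4 below the limit. Against the median of the array, 2 estimates changed sign, Ckm 160175_at (-0.31) and Ckmt1 161495_r_at (-0.64 on the log2 scale). Leaving out each replicate gave 6 to 8 called above and 2 to 4 below, with 12853 to 14783 probe sets called above in all, 8 member probe sets detected each time and 77 to 79 list genes detected. Detected member probe sets numbered 8, and 6 against the array median and 7 against the highest absent control. Detected list genes numbered 77, with 70 and 76 under those limits. Leaving out dim probe sets gave 0 called below, since that filter removes the 4 probe sets that were below. The calls on 161569_f_at, 170247_r_at and 171149_r_at of Ckm, on both probe sets of Ckb, on Ak1 and on 161876_r_at and 162015_f_at of Ckmt2 kept their direction and their side of the threshold under every alternative that could give a value. Several lists changed in their detected genes. Blood and immune markers went from 1 to 0 against the array median and to 2 without replicate 2. Among the others, neuron and glia markers went from 6 to 4 against the array median, and heart markers from 4 to 3. Nucleoside diphosphate kinases went from 4 to 3 and the AMP genes from 10 to 9 there. The other adenylate kinases went from 3 to 2 against the highest absent control. The cause of these changes was not tested. Signal near the background limit, as for Ckm 160175_at, both Ckmt1 probe sets and Ckmt2 103618_at, is not resolved by 3 arrays.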
